A study of Homo sapiens with 4 samples.

Results

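*LINC00461* is a long intergenic non-coding RNA (lncRNA) of chromosome 5 that is transcribed through the microRNA gene *MIR9-2*. It was described here together with the genes around it and with *C1orf61*, the host gene of *MIR9-1*, in 4 RNA-seq libraries of the glioblastoma cell line U87MG. The 8 genes were chosen by name, namely *LINC00461*, *MIR9-2*, *MEF2C*, *MEF2C-AS1*, *MEF2C-AS2*, *TMEM161B*, *TMEM161B-AS1* and *C1orf61*, and all 8 have an identifier among the 58226 Ensembl genes of the files. TMZ-resistant U87MG cells (R-U87MG), a derivative of U87MG kept in 50 μM temozolomide (TMZ), received non-targeting control siRNAs (si-NC) or siRNAs against HDAC6 (si-HDAC6). Parental U87MG cells received si-NC or an siRNA against *LINC00461* (si-*LINC00461*). RNA was taken 72 h after transfection, and each of the 4 conditions has 1 library. No difference below could be set against replicates, and no p-value is given. The interval beside each ratio is the 95% Clopper-Pearson (exact binomial) one and reflects counting error alone. Each condition is also 1 cell line, so nothing here says how other glioblastoma cells behave.

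miR-9 is a microRNA of the nervous system that is made from 3 human genes, *MIR9-1*, *MIR9-2* and *MIR9-3*, each inside a longer host transcript. A hairpin is cut out of the host by DROSHA and DGCR8, exported by XPO5 and cut again by DICER1, and the mature strand guides an Argonaute protein to messages that pair with its seed. miR-9 is known in neural progenitors for restraining *REST*, *HES1*, *NR2E1* and *ONECUT* genes. *MEF2C*, the nearest protein-coding neighbour of *LINC00461*, encodes a MADS-box transcription factor of neurons, muscle and blood vessels. *TMEM161B*, on the other side, encodes a transmembrane protein.

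The sequences of miR-9 (RefSeq, GRCh38.p14) are shown because the 3 genes give the same mature strands. The seed, bases 2 to 8, is in capitals, followed by the hairpins with both mature strands in capitals. *MIR9-1* lies at chr1:156420341-156420429 on the minus strand, *MIR9-2* at chr5:88666853-88666939 on the minus strand and *MIR9-3* at chr15:89368017-89368106 on the plus strand.
hsa-miR-9-5p: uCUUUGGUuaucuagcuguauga
hsa-miR-9-3p: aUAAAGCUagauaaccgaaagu
MIR9-1: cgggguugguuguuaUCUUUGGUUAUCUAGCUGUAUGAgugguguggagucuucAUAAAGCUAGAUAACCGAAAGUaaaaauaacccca
MIR9-2: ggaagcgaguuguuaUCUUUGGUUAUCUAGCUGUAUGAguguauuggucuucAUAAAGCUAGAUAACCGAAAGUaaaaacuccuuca
MIR9-3: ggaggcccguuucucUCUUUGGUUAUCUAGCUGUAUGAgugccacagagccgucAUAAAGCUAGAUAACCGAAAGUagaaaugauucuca
The hairpins differ in their ends and loops and share both mature strands in full.

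The siRNA against *LINC00461* and the *MIR9-2* hairpin lie on the same exon, so the stretch between them is printed, in capitals the siRNA site and both mature strands of miR-9. It is chr5:88666853-88667141 (GRCh38, minus strand) as read from one of its transcripts in GENCODE 29.
LINC00461 exon: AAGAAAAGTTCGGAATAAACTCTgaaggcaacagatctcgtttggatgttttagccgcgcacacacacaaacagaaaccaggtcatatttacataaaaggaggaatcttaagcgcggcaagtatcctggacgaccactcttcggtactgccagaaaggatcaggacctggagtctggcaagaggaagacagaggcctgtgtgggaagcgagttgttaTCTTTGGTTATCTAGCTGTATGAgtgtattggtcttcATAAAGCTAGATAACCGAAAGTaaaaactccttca
The siRNA site ends 179 bases before the hairpin. Of the 16 annotated transcripts of *LINC00461*, 6 hold the site and 4 of these also hold the whole hairpin. No transcript holds the hairpin without the siRNA site, and 10 hold neither. The study also links *LINC00461* to miR-485-3p, which is printed with its seed in capitals.
hsa-miR-485-3p: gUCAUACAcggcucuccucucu
Searching the *LINC00461* transcripts for the complement of this seed (TGTATGA, the strand of the transcript only) found 1 place, chr5:88666902-88666908, which 5 transcripts hold and which is the last stretch of the mature miR-9-5p strand.
LINC00461 at the miR-485-3p match: gttatctagcTGTATGAgtgtattggt
The other form of seed match searched, GTATGAA, lies once, at chr5:88665822-88665828, in 3 transcripts. A match of this kind is a description and not a measured binding site.

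The library totals were 12596072 to 20027866 fragments, of which 3, taken as the smallest measurable level, equal 0.150 to 0.238 CPM, a gene's count scaled to its library total. The knockdown of HDAC6 left 67 of its counts in R-U87MG si-HDAC6 beside 296 in the control, or −1.74 on the log2 scale (interval −2.16 to −1.36). Of the astroglial and glioma markers, *VIM* and *CD44* were abundant and *NES* had 441 to 854 counts. *OLIG2* had 92 and 115 counts in R-U87MG si-NC and si-HDAC6, and 15 and 18 in U87MG si-NC and si-*LINC00461*. *GFAP*, *SOX2* and *S100B* had at most 13, 4 and 4 counts in any library and *AQP4* had none. The astrocyte markers *GFAP* and *AQP4* were thus near or at 0. *PTPRC* and *CD3E* had at most 3 counts. Some markers of other cell types were higher after si-*LINC00461*. The 4 endothelial genes summed to 3.40 CPM in U87MG si-NC and 26.0 CPM in si-*LINC00461*, nearly all of it *PECAM1* (52 and 433 counts), with *CLDN5* at 1 and 0. The 5 immune genes summed to 424 and 735 CPM, nearly all *CD68*, which is also a lysosomal gene, and the 5 neuronal genes to 242 and 331 CPM. Of these, *SNAP25* had 1075 and 2057 counts, *SYT1* 146 and 195 and *TUBB3* 3622 and 3624, whereas *RBFOX3* had 3 and 0 and *STMN2* 0 and 2. The 8 glioma and astroglial genes summed to 7975 and 4943 CPM, most of it *VIM* with 126719 and 56351 counts. In R-U87MG si-NC and si-HDAC6 the endothelial genes summed to 3.67 and 2.62 CPM, the immune genes to 486 and 533 CPM, the neuronal genes to 241 and 261 CPM and the glioma and astroglial genes to 8377 and 8693 CPM. The part of these markers in the results below was not tested. In bulk RNA, fewer cells of a kind and less RNA per cell cannot be told apart.

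*LINC00461* was lower in each siRNA library than in its control, and lower in the resistant than in the parental control. Its counts were 363 in U87MG si-NC, 73 in U87MG si-*LINC00461*, 154 in R-U87MG si-NC and 80 in R-U87MG si-HDAC6. As levels these are 18.1 CPM (interval 16.3 to 20.1), 4.11 CPM (3.22 to 5.16), 9.26 CPM (7.85 to 10.8) and 6.35 CPM (5.04 to 7.90). The parental control stood above the other 3 libraries, the intervals of R-U87MG si-NC and si-HDAC6 overlapped slightly, and so did those of R-U87MG si-HDAC6 and U87MG si-*LINC00461*. In the parental control 64.9% of the detected genes had fewer counts than *LINC00461*, and in the other libraries 47.6% to 53.3%.

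**Figure D1:**
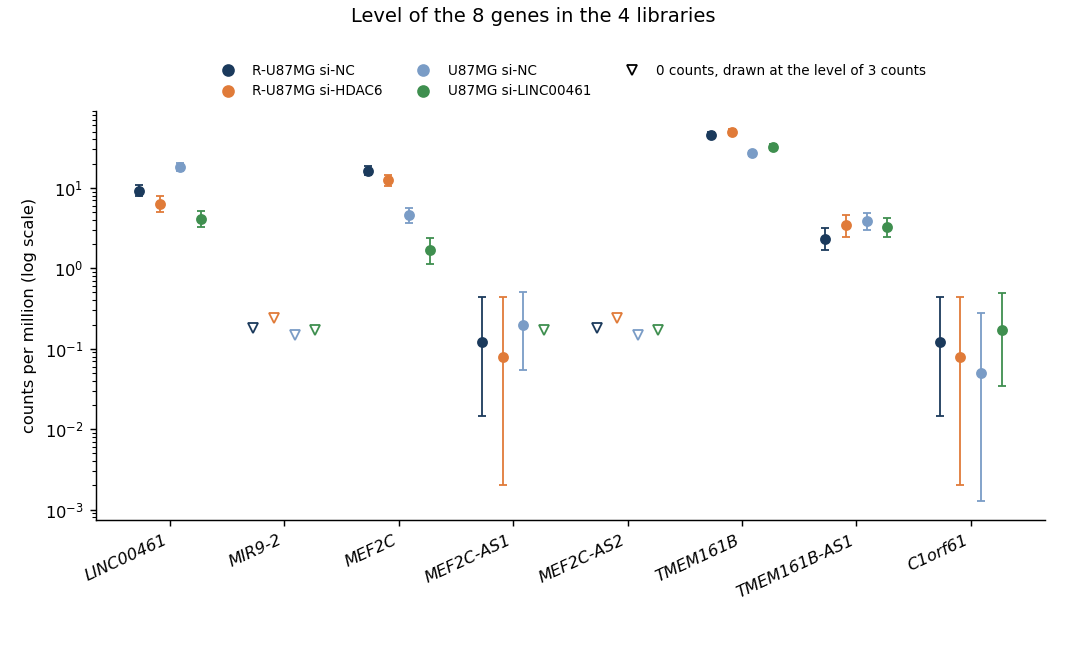
Level of each gene in CPM (log axis) in the 4 libraries; points are single libraries, bars are 95% exact binomial intervals and open triangles mark 0 counts, drawn at the level of 3 counts. CPM is not corrected for gene length, so points are to be compared within a gene; *LINC00461* and *MEF2C* are lowest in U87MG si-*LINC00461*, and *MIR9-2* and *MEF2C-AS2* have no count.

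After si-*LINC00461* the log2 ratio of *LINC00461* to si-NC, normalised by TMM, was −2.12 (interval −2.51 to −1.76), which is 4.34-fold lower. Genes were compared where their CPM averaged 1 or more over the pair of libraries, and of 13210 such genes 8.17% were lower by 2-fold or more and 5.42% higher by as much. The interval lay below 0 for 33.4% of genes and above 0 for 33.1%, so an interval that excludes 0 was common between these libraries. After si-HDAC6 the log2 ratio of *LINC00461* was −0.55 (−0.96 to −0.15), 1.46-fold lower. There 0.747% of 13120 genes were lower by 2-fold or more and 0.694% higher, and the interval lay below 0 for 16.4% and above 0 for 13.8%. With the control library thinned to the depth of the si-HDAC6 library this ratio was −0.39 (−0.83 to 0.04), an interval that includes 0.

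Between the control libraries *LINC00461* was lower in R-U87MG than in U87MG, with a log2 ratio of −1.23 (−1.51 to −0.96). The study reports the other direction, a higher level in TMZ-resistant cells, which it shows for patient-derived glioblastoma cells. Those are other cells than the ones described here. Of 13349 genes, 15% were lower in R-U87MG by 2-fold or more and 11.2% higher, and the interval lay below 0 for 38.8% and above 0 for 39.4%. Whether the resistant and parental libraries were prepared together is not given in the sources used here, so cell line and handling cannot be told apart. R-U87MG is also the line kept in TMZ, and the part of the drug in these differences was not tested. Scaling by total counts shifted all ratios of this comparison by 0.26, and gave −0.97 (−1.25 to −0.69) for *LINC00461*, which is no longer 2-fold. Each siRNA comparison shares its control library with this one.

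*MEF2C*, which starts 213 kb from the start of *LINC00461* on the same strand, was also lower after either siRNA, but higher in the resistant than in the parental control. Its counts were 92 in U87MG si-NC, 30 in U87MG si-*LINC00461*, 273 in R-U87MG si-NC and 156 in R-U87MG si-HDAC6. In CPM these were 4.59 (3.70 to 5.63), 1.69 (1.14 to 2.41), 16.4 and 12.4. The R-U87MG libraries both stood above the U87MG libraries, and no intervals of R-U87MG and U87MG overlapped. The log2 ratio was −1.41 (−2.08 to −0.82) after si-*LINC00461*, 2.66-fold lower, and −0.41 (−0.71 to −0.13) after si-HDAC6, 1.33-fold lower. Between the controls it was 1.57 (1.23 to 1.93), 2.96-fold higher in R-U87MG, and 1.83 under scaling by total counts.

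The counts of *MEF2C* and *LINC00461* can be set against each other within a library, where depth and scaling cancel. *MEF2C* had 0.253 counts per count of *LINC00461* in U87MG si-NC (interval 0.199 to 0.319) and 0.411 in U87MG si-*LINC00461* (0.259 to 0.637). It had 1.77 in R-U87MG si-NC (1.45 to 2.17) and 1.95 in R-U87MG si-HDAC6 (1.48 to 2.59). The intervals overlapped within each cell line and lay far apart between the cell lines. Per kb of exon, *LINC00461* had 2.94 CPM and *MEF2C* 0.391 CPM in U87MG si-NC, whereas in R-U87MG si-NC the levels per kb were 1.5 and 1.40 CPM.

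**Figure D2:**
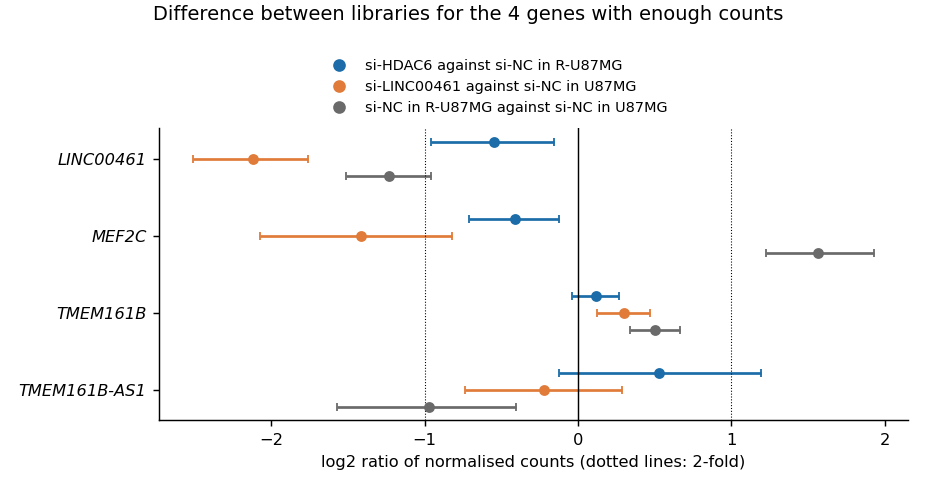
Log2 ratio of normalised counts (x axis) for the 4 genes that passed the filter on CPM, in 3 comparisons; points are single pairs of libraries, bars are 95% exact binomial intervals and dotted lines mark 2-fold. *LINC00461* lies below 0 in all 3 comparisons, and *MEF2C* at −0.41 and −1.41 after the siRNAs but at 1.57 between the controls.

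The antisense genes of *MEF2C* were near or at 0. *MEF2C-AS1*, at chr5:88883328-89466398 on the plus strand, had 4 counts in U87MG si-NC, 0 in U87MG si-*LINC00461*, 2 in R-U87MG si-NC and 1 in R-U87MG si-HDAC6. *MEF2C-AS2*, at chr5:88676218-88722831, had 0 counts in all 4 libraries, which puts it below the level of 3 counts, 0.150 to 0.238 CPM. The upper 95% exact bounds for 0 counts are 0.184 to 0.293 CPM. No fold is given for either. Their exons share 422 and 208 bases, respectively, with exons of *MEF2C*, and *MEF2C-AS2* shares 46 bases with *LINC00461*. The strand setting of the counting step is not given in the sources used here, so fragments of these stretches could not be told apart by strand. RefSeq places the start of *MEF2C-AS1* 146 bases before one of the starts of *MEF2C*, running the opposite way. *MEF2C* has 7 starts in that table, and the counts are of whole genes, so none can be assigned to this start.

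*TMEM161B*, whose start lies 422 kb from that of *LINC00461*, had the most counts of the 8 genes in every library and differed less than 2-fold in each comparison. It had 536 counts in U87MG si-NC, 579 in U87MG si-*LINC00461*, 758 in R-U87MG si-NC and 626 in R-U87MG si-HDAC6. The levels of *TMEM161B* were 26.8, 32.6, 45.6 and 49.7 CPM, with both R-U87MG libraries the higher. Scaled by TMM they were 29.3, 36.0, 41.5 and 45.2 CPM in the same order, a narrower gap between the cell lines. Per kb of exon, its level in U87MG si-NC was 2.79 CPM, beside 2.94 CPM for *LINC00461*, and in R-U87MG si-NC 4.75 CPM, beside 1.5 CPM. With the longest transcript as the length, the levels per kb were 3.52 and 5.09 CPM in U87MG si-NC and 5.99 and 2.60 CPM in R-U87MG si-NC. The log2 ratio was 0.12 (−0.04 to 0.27) after si-HDAC6, 0.30 (0.13 to 0.47) after si-*LINC00461* and 0.50 (0.34 to 0.67) between the controls, or 0.77 for the last under scaling by total counts.

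*TMEM161B-AS1*, the lncRNA that starts beside *TMEM161B* and runs the other way, was lower in the resistant control while *TMEM161B* was higher. Its counts were 77 in U87MG si-NC, 58 in U87MG si-*LINC00461*, 39 in R-U87MG si-NC and 43 in R-U87MG si-HDAC6. The levels were 3.84 CPM (3.03 to 4.81), 3.26 CPM (2.48 to 4.22), 2.34 CPM (1.67 to 3.20) and 3.41 CPM (2.47 to 4.60), and of these intervals the resistant and parental controls overlapped by the least. The log2 ratio was 0.53 (−0.13 to 1.20) after si-HDAC6 and −0.22 (−0.74 to 0.29) after si-*LINC00461*, both with intervals that include 0. Between the controls it was −0.97 (−1.57 to −0.40). There were 6.96 counts of *TMEM161B* per count of *TMEM161B-AS1* in U87MG si-NC (5.47 to 8.96) and 19.4 in R-U87MG si-NC (14.1 to 27.6), intervals that do not overlap. In the siRNA libraries there were 9.98 in U87MG si-*LINC00461* (7.61 to 13.3) and 14.6 in R-U87MG si-HDAC6 (10.7 to 20.3). These intervals overlap between the cell lines. In GENCODE the genes overlap at their starts, and their exons share 185 bases, 4.17% of those of *TMEM161B-AS1*. Because the strand setting of the counting step is not given, fragments of this stretch could not be told apart by strand. The part of this stretch in the counts and ratios of *TMEM161B-AS1* was not tested.

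The sequence at these starts is printed because the partners, which differ in opposite directions between the controls, start close to each other. RefSeq (GRCh38.p14) places the start of *TMEM161B* at 88268845 on the minus strand and that of *TMEM161B-AS1* at 88269016 on the plus strand, 171 bases apart. The window is the 250 bases before the start of *TMEM161B*, chr5:88268846-88269095, with GC boxes (GGGCGG on either strand, overlaps counted) in capitals.
TMEM161B window: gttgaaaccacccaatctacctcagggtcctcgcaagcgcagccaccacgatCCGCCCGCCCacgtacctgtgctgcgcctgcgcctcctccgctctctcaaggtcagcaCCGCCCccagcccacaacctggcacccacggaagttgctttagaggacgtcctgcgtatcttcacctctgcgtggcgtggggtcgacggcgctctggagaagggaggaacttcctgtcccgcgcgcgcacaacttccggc
It runs past the start of *TMEM161B-AS1*. It holds 3 GC boxes, 1 of which lies in the window before the start of *TMEM161B-AS1*. At least 1 such box is in 42.6% of 35116 RefSeq windows of this length. None of the 3 *LINC00461* windows and 7 *MEF2C* windows in that table holds one, nor a TATA box (TATAAA, either strand) or an MEF2 site, and the windows of *MEF2C-AS2* and *C1orf61* each hold 1 cyclic AMP response element (TGACGTCA), as 1.65% of all windows do. A match is a description of letters and says nothing of a factor.

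The miR-9 host genes other than *LINC00461* had few counts or none. *C1orf61*, at chr1:156404250-156430701 on the minus strand, had 2, 1, 1 and 3 counts in R-U87MG si-NC, R-U87MG si-HDAC6, U87MG si-NC and U87MG si-*LINC00461*. *MIR9-3HG*, the host of *MIR9-3*, had 1 count in R-U87MG si-NC and 0 in the other libraries. *MIR9-1*, *MIR9-2* and *MIR9-3* were at 0 throughout. All 87 bases of *MIR9-2* lie within exons of *LINC00461*, so a value of 0 for *MIR9-2* does not say that the hairpin stretch had no fragments, because how the counting step assigned fragments that fit both genes is not given in the sources used here. Levels of mature miR-9 were not analysed here.

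The wider neighbourhood was read for other genes near *LINC00461* that differ where it does. Within 2 Mb of its ends GENCODE 29 has 47 genes, of which 28 had no count in any library, 13 had at least 10 counts in all and 12 were compared. After si-*LINC00461*, 3 of the 12 were at least 2-fold lower, namely *LINC00461*, *MEF2C* and *CCNH*, and none was 2-fold higher, beside the shares of 8.17% and 5.42% over all genes. *LINC00461* is the target of the siRNA, so its place in this count was fixed beforehand. Of the 8 compared genes not named in the opening, 1 was at least 2-fold lower, *CCNH*, and none was 2-fold higher. *CCNH*, which encodes the cyclin H subunit of the CDK-activating kinase and starts at −1278 kb, went from 496 counts in the control to 217, a log2 ratio of −1.0 (−1.24 to −0.77). *LYSMD3* was at −0.73 (−0.88 to −0.58) and *POLR3G*, a subunit of RNA polymerase III, at −0.61 (−0.85 to −0.37). *MBLAC2* was at 0.60 (0.26 to 0.94), and *RASA1*, a Ras GTPase-activating protein, was at 0.12. *COX7C* was at 0.01, *ADGRV1* at −0.06 and *CETN3* at −0.28 (−0.63 to 0.07).

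After si-HDAC6 the same 12 genes gave 2 whose interval lay below 0, *LINC00461* and *MEF2C*, and none whose interval lay above it, beside the shares of 16.4% and 13.8% over all genes, so the share below 0 was near that of all genes. The 8 that are not among the genes named in the opening had intervals that include 0, with log2 ratios from −0.06 for *CCNH* and *CETN3* to 0.23 for *ADGRV1* and *MBLAC2*. Between the controls *ADGRV1*, an adhesion receptor of hair cells and photoreceptors, was lower in R-U87MG at −1.95 (−2.46 to −1.49), from 180 to 46 counts, and *CCNH* was at 0.58 (0.41 to 0.75). The median over the 12 genes was −0.00 after si-HDAC6, −0.25 after si-*LINC00461* and 0.17 between the controls, beside −0.01, −0.00 and 0.02 over all genes compared. Over the 8 genes not named in the opening the medians were −0.00, −0.17 and 0.17 in the same order. *AC091429.1*, the remaining gene with at least 10 counts, had 1 to 9 counts per library.

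Around *C1orf61*, which itself had few counts, lie abundant genes and genes with few counts or none. Within 250 kb lie 32 genes, of which 8 had no count, 18 had at least 10 and 14 were compared. Of the 14, 1 was at least 2-fold lower and 1 higher after si-*LINC00461*, beside 8.17% and 5.42% over all genes. None was lower and 1 was higher after si-HDAC6, beside 0.747% and 0.694%. For the controls none was lower and 2 were higher in R-U87MG, beside 15% and 11.2%. After si-*LINC00461*, *IQGAP3*, a scaffold protein of dividing cells, was at −2.49 (−2.78 to −2.23), from 823 to 128 counts, and *GLMP*, a lysosomal membrane protein, at 1.21 (1.12 to 1.31). *SLC25A44* was at 0.84, *MEF2D* at 0.75 and *CCT3* at −0.19. After si-HDAC6 the only ratio of at least 2-fold was that of *PMF1-BGLAP*, a readthrough gene that shares exons with *PMF1*, at 1.18 (0.26 to 2.18) from 16 and 28 counts, whose division of fragments is uncertain. Between the controls *GPATCH4* was at 2.43 (2.27 to 2.59), from 367 counts in U87MG to 1969 in R-U87MG, and *SLC25A44* at 1.19. The other compared genes, *PMF1*, *SMG5*, *TMEM79*, *NAXE*, *AL365181.3*, *AL590666.2* and *NES*, were less than 2-fold apart in each comparison, and *SEMA4A*, *PAQR6*, *AL365181.2* and *BCAN* were too low to compare.

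MEF2 factors work with class IIa histone deacetylases, which bind them and hold their targets down. Of the 8 genes of this list (*MEF2A*, *MEF2B*, *MEF2C*, *MEF2D*, *HDAC4*, *HDAC5*, *HDAC7* and *HDAC9*), 7 were compared and *MEF2B* had 2 to 6 counts. After si-*LINC00461*, *MEF2C* was the one gene of 7 at least 2-fold lower, and none was 2-fold higher, beside 8.17% and 5.42% over all genes. *MEF2A* was at −0.73 (−0.83 to −0.63) and *MEF2D*, the most abundant in that library by counts, at 0.75 (0.65 to 0.85). *HDAC9* was at −0.70, *HDAC4* at −0.54, *HDAC5* at 0.44 and *HDAC7* at 0.17, so the family members lay on both sides of 0 with a median of −0.54. After si-HDAC6 none was 2-fold apart, beside 0.747% of all genes lower and 0.694% higher. The ratios other than that of *MEF2C* ran from −0.02 for *MEF2A* to 0.15 for *HDAC7*. Between the controls *HDAC9* was at 1.24 (1.08 to 1.40) beside *MEF2C* at 1.57, and *HDAC5* at −1.31 (−1.48 to −1.13). Over all genes 11.2% were higher there and 15% lower by 2-fold or more.

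The genes that process microRNAs were expressed in all 4 libraries. All 9 listed were compared, and none was 2-fold apart in any comparison. Over all genes 0.747% were lower and 0.694% higher by as much after si-HDAC6. The shares were 8.17% and 5.42% after si-*LINC00461*, and 15% and 11.2% between the controls. After si-HDAC6 their log2 ratios ran from −0.02 to 0.22, with *AGO2* the highest at 0.22 (0.11 to 0.32). After si-*LINC00461*, *AGO2* and *AGO1* were at 0.62 and 0.52 and *DGCR8* at −0.45, and *DICER1*, the most abundant by counts, was at −0.13 (−0.20 to −0.07). Between the controls *XPO5* was at 0.69, *DROSHA* at 0.66 and *AGO4* at −0.68.

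The list of miR-9 targets from the literature holds 22 genes, of which 18 have a match to the miR-9-5p seed (ACCAAAG or CCAAAGA) in their longest annotated 3′ UTR. After si-HDAC6 none of the 19 compared was 2-fold apart, beside 0.747% of all genes lower and 0.694% higher, and their median was 0.00. After si-*LINC00461* 2 of 19 were lower by 2-fold or more and 2 higher, near the shares of 8.17% and 5.42% over all genes, with a median of −0.12. *ELAVL2*, a neuronal RNA-binding protein, had 42 counts in the control and 8 after the siRNA (−2.13, interval −3.51 to −1.10). *STMN1*, a microtubule-destabilising protein, had 2123 and 657 (−1.50, −1.63 to −1.38). *HES1*, a Notch-driven repressor, had 9 and 42 (2.35, 1.35 to 3.63), and *CDH1*, E-cadherin, had 19 and 41 (1.28, 0.48 to 2.16). The higher and lower genes thus rest on few counts except for *STMN1*.

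Between the controls 3 of the 18 compared were at least 2-fold higher in R-U87MG, *ELAVL2* at 2.23 (1.75 to 2.76), *ONECUT1* at 1.41 (0.53 to 2.44) and *SIRT1* at 1.12 (0.90 to 1.35), and none was 2-fold lower. Over all genes 11.2% were higher and 15% lower by as much. Of the most abundant genes of the list, *MAP1B* was at 0.07, −0.12 and −0.44 after si-HDAC6, after si-*LINC00461* and between the controls, *NF1* at −0.03, 0.34 and −0.64, *RCOR1* at 0.04, 0.12 and −0.97, and *LIFR* at −0.21, −0.07 and −0.79. *NR2E1* and *GSX2* had no count.

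Over all genes compared, those with and without a miR-9-5p seed match differed little. After si-*LINC00461* the median log2 ratio was 0.02 in the 2933 genes with a match and 0.02 in the 8850 without. After si-HDAC6 it was −0.02 in 2853 genes and 0.00 in 8621, and between the controls −0.05 in 2920 genes and 0.03 in 8809. Genes with a match have longer 3′ UTRs, with a median of 3061 bases against 1098 in the si-*LINC00461* comparison. Among the longest of 3 equal groups by 3′ UTR length the medians were 0.01 and 0.03 there, −0.03 and −0.03 after si-HDAC6, and −0.08 and −0.02 between the controls. These are descriptions across genes, which are not replicates. The part of 3′ UTR length in the differences was not tested beyond this split.

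*REST*, the repressor of neuronal genes that miR-9 restrains, was at 0.07 (−0.04 to 0.18) after si-HDAC6, 0.13 (0.02 to 0.23) after si-*LINC00461* and 0.14 (0.03 to 0.24) between the controls. Of the 8 genes of *REST*, its corepressors and the small phosphatases that act with it, none was 2-fold apart after si-HDAC6. Over all genes 0.747% were lower and 0.694% higher by as much. *CTDSP2*, a phosphatase gene that hosts a microRNA of its own, went from 2165 counts in U87MG si-NC to 5657 after si-*LINC00461*. This is 1.57 on the log2 scale (1.5 to 1.64). *CTDSP2* was the one gene of the list 2-fold apart in that comparison, beside 5.42% of all genes higher by 2-fold or more. It was at 0.47 after si-HDAC6. Between the controls *CTDSP1* and *CTDSP2* were lower in R-U87MG at −1.07 (−1.19 to −0.96) and −1.03 (−1.14 to −0.92), beside 15% of all genes lower by 2-fold or more. *HDAC2*, *SIN3A* and *HDAC1* stayed within 2-fold in each comparison.

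The study linked *LINC00461* to RNA-binding and regulatory proteins, and the transcripts of *HDAC6*, *CNOT6*, *VIM*, *ELAVL1*, *PABPC1* and *SP1* were read. After si-HDAC6 the only one of these at least 2-fold apart was *HDAC6*, beside 0.747% of all genes lower and 0.694% higher. *HDAC6* is the target of that siRNA, so its place in this count was fixed beforehand. *CNOT6*, a deadenylase subunit, was at 0.11 (−0.02 to 0.24), *SP1* was at −0.02, *ELAVL1* at −0.06 and *PABPC1*, the poly(A)-binding protein, at −0.18. After si-*LINC00461* none of these was 2-fold apart, beside 8.17% of all genes lower and 5.42% higher by 2-fold or more. *VIM* was the lowest at −0.98 (−1.0 to −0.97), *PABPC1* was at −0.65 and *HDAC6* at −0.08 (−0.24 to 0.09), from 649 to 540 counts. Between the controls *HDAC6* was lower in R-U87MG at −1.13 (−1.33 to −0.93), as *LINC00461* was. Over all genes 15% were lower there by 2-fold or more.

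The genes nearest to *LINC00461* in pattern, by the Euclidean distance of centred log2 CPM over the 4 libraries among 13369 genes, were *NREP* (distance 0.235), *SGCD* (0.257), *ROR1* (0.270), *MARCKS* (0.36) and *HLA-DRB1* (0.362). *NREP* had 1416 counts in U87MG si-NC, 265 in U87MG si-*LINC00461*, 480 in R-U87MG si-NC and 280 in R-U87MG si-HDAC6. As with *LINC00461*, the parental control stood highest by far, which follows from choosing genes by this distance. *MARCKS*, a membrane-bound substrate of protein kinase C, had 10950, 1793, 3480 and 2385 counts in the same order. With 4 libraries such a likeness is a description only.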

How the data were processed

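The authors sequenced 4 libraries, 1 for each condition, made with a strand-specific kit. The submitters' processing notes name bcl2fastq, Trimmomatic 0.36, HISAT2 and the build GRCh38.p13. The counting program and its strand setting are not given in the sources used here. For every Ensembl gene the authors deposited an estimated count of fragments times a factor that is the same throughout a library (0.869, 1.15, 0.939 and 1.06 for R-U87MG si-NC, R-U87MG si-HDAC6, U87MG si-NC and U87MG si-*LINC00461*). Each value was divided by this factor, after which 93.4% to 94.1% of the values above 0 lay within 0.02 of a whole number, and rounded. Estimates that divide fragments between overlapping genes remain in the values. Rounded counts summed to 16639551, 12596072, 20027866 and 17777046.

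Symbols, positions, transcripts and exons came from GENCODE 29 (GRCh38), in which 57888 of 58226 identifiers occur. Sequences of microRNAs and promoters came from RefSeq tables of GRCh38.p14, matched by symbol or synonym, and 7 of the 8 genes had a promoter window. The siRNA sequence came from the study's supplement.

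For each comparison, counts plus 0.5 were divided by the TMM effective library size (edgeR 4.0.16, R 4.3.3) and the log2 ratio was taken, which understates the difference of low genes. CPM were taken over library totals. Genes whose CPM averaged 1 or more over both libraries were compared. A ratio was called 2-fold at 1 on the log2 scale, and intervals are 95% Clopper-Pearson bounds on how a gene's counts were split between the libraries. With 1 library per condition, samples were not grouped further and the designs allow no test. PCR copies are not independent molecules, so intervals cover counting error only. The script was tested on simulated data. Where both libraries had 3 counts or fewer, no ratio was given. The 8 genes and the gene lists were chosen with earlier results of these data known. Named are the 8 genes, genes within 2 Mb of *LINC00461* or 250 kb of *C1orf61* with at least 10 counts, those of each list at least 2-fold apart with up to 4 of its other abundant genes, and the 5 nearest to *LINC00461*. Genes of a list named beyond these were chosen after their values were seen, and 1 listed gene is not reported here. Alternatives were total counts, DESeq2 1.42.0 size factors and upper-quartile scaling, pseudocounts of 0.1 and 5, thinned or unrounded counts, other filters (at least 20 counts, or none), a threshold of 1.5-fold, TMM levels, the longest transcript as length, and other definitions of miR-9-5p sites. Software was Python 3.11.15 with scipy 1.17.1, numpy 2.4.6, pandas 2.3.3 and matplotlib 3.10.9.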

Additional observations from a re-analysis of the deposited data

How the results depend on the processing

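The log2 ratios of *LINC00461*, *MEF2C*, *TMEM161B* and *TMEM161B-AS1* in the 3 comparisons were recomputed under 7 alternatives, 84 values in all. No value changed sign, 83 lay within the interval of the reported ratio and 83 kept their side of 0 by interval. The value outside was *TMEM161B* between the controls under total counts, 0.77 against 0.50. The interval that came to include 0 was that of *LINC00461* after si-HDAC6 in thinned libraries, −0.39 (−0.83 to 0.04), from a single random draw. The cause was not tested. By total counts *LINC00461* between the controls was at −0.97, and by upper-quartile scaling *TMEM161B-AS1* there was at −1.01, so both crossed 2-fold.

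The counts of genes at least 2-fold apart moved with the threshold and the filter. Without a filter, lower and higher genes numbered 3050 and 2465 after si-HDAC6, 4243 and 3799 after si-*LINC00461* and 5793 and 4772 between the controls. At 1.5-fold they numbered 330 and 352, 2222 and 1871, and 3346 and 3077. Lower genes after si-HDAC6 numbered 43 with a pseudocount of 5 and 173 with a filter of at least 20 counts, and higher genes between the controls numbered 2399 under total counts. The other 39 of 54 such counts lay within 1.5 times the main one. The difference between genes with and without miR-9-5p sites moved by less than 0.05 under both alternatives. TMM levels moved the CPM of *TMEM161B* beyond its interval in all 4 libraries, and the longest transcript raised every level per kb, for *LINC00461* in U87MG si-NC from 2.94 to 5.09 CPM. No paired analysis was possible because each condition has 1 library. *MEF2C-AS1*, *MEF2C-AS2*, *MIR9-2* and *C1orf61* had few counts or none, and no difference was detectable for them at these depths. For *MIR9-2* the value of 0 may also come from how fragments that fit *LINC00461* too were assigned, so depth was not shown to be its limit.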
